A study of Mus musculus with 24 samples.

Results

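Chemokines and their receptors were measured in 2 tissues, liver and white adipose, from mice with human PER1. The members were the genes whose name on the array follows the pattern Ccl, Cxcl, Ccr or Cxcr with a number, together with Cx3cl1, Cx3cr1, Xcl1 and Xcr1. These were 54 of 34840 gene names on the array, measured by 70 of 55681 probes, and each gene was taken at its brightest probe. Of the 54, 20 are CC ligands, 13 CXC ligands, 10 CC receptors, 7 CXC receptors, and 2 each are ligands and receptors of the CX3C and XC classes. The probe named Cxcr7 carries the current symbol Ackr3, an atypical scavenging receptor.

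Male C57BL/6 mice of 2 months carried either hPER1 S714G (mutant) or hPER1 S714 (control), after 10 days in light-dark cycles. Both genotypes therefore carry human PER1, which represses the activators of the clock. The promoter that drives it is not given in the sources used here. Tissue, genotype and the times ZT1 and ZT13 (hours after lights on) gave 8 groups of 3 arrays, which the design text calls independent repeats. The arrays lay on 3 slides of 8, and their number limits the precision of every value below.

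Chemokines are small secreted proteins that guide migrating leukocytes along gradients, and their receptors are G protein coupled receptors on the migrating cells. CC ligands such as Ccl2, Ccl7 and Ccl12 mainly attract monocytes, Ccl11 and Ccl24 (eotaxins) attract eosinophils through Ccr3, and Cxcl1 attracts neutrophils through Cxcr2. Cxcl9, Cxcl10 and Cxcl11 are induced by interferon and act on Cxcr3, and Cxcl12 is the ligand of Cxcr4 and is also bound by Cxcr7. Cx3cl1 (fractalkine) acts on Cx3cr1, which marks monocytes and some tissue macrophages. In bulk tissue, fewer cells of a type and less RNA per cell cannot be told apart.

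Promoter sequence is shown for the 3 members whose tissue or time differences were among the largest and whose window held a match to the NF-kappaB consensus, the binding motif of a transcription factor that induces many chemokines. RefSeq's table (build GRCm38.p6) matched 39 of the 54 members, and Ccl2, Ccl7 and Ccl11 were not among them. Each line gives 250 bases ending at the start site, read 5′ to 3′ on the gene's strand. Capitals mark NF-kappaB matches and, in the Cxcl10 window, also the interferon-response element (ISRE: GAAA, any 2 bases, GAAA). The windows are chr5:90890995-90891244 on the plus strand for Cxcl1, chr5:92348890-92349139 on the minus strand for Cxcl10 and chr9:124021721-124021970 on the plus strand for Ccr3.
Cxcl1: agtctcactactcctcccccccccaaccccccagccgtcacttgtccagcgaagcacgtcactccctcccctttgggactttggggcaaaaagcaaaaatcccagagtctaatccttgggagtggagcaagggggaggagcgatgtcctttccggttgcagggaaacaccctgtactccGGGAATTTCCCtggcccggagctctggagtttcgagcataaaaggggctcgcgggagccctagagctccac
Cxcl10: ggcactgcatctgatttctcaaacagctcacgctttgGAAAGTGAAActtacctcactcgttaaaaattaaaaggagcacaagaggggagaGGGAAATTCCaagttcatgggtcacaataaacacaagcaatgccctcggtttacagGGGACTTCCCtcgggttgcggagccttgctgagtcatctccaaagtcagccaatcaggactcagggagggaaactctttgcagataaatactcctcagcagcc
Ccr3: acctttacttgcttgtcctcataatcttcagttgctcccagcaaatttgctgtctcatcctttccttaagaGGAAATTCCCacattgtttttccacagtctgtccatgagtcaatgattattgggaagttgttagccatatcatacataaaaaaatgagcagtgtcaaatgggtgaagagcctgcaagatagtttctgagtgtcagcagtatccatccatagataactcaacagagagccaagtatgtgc
The NF-kappaB consensus was found, on either strand, in 9 of the 39 members with a window and in 4.51% of all 32851 windows of 300 bases. The ISRE was found in 3 of the 39 members (Ccl19, Cxcl10 and Cxcl14) and in 3.44% of all windows. The E-box CACGTG, bound by the clock's activators, was found in Cxcl3 and Xcr1 alone among the members, against 7.15% of all windows. A match describes the letters only and was not tested as a site.

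Between 45.5% and 71.2% of the spots of an array were well above background, and the array's 75th percentile signal ran from 406 to 2027 units. All levels below are log2 signals relative to that percentile, so that 0 is a fairly bright probe. The lowest signal called above background lay between -6.26 and -2.82, depending on the array. Both the 45.5% and the -2.82 belong to liver control ZT1 replicate 3. The liver control ZT1 arrays had 75th percentile signals of 406, 731 and 582 units, against 865 to 1110 on the other liver arrays. Of the 54 members, 20 were above background on all 24 arrays and 7 on none (Ccl20, Ccr4, Cxcl15, Cxcl17, Cxcl2, Cxcl3 and Cxcr1). Testing required detection on each of the 3 arrays of some group, which 29 members met in liver, 37 in adipose tissue and 39 when both tissues were fitted together. Another 8 were above background on some arrays but met this in neither tissue (Ccl1, Ccl22, Ccl26, Ccl28, Ccl3, Ccr7, Ccr8 and Cxcl5). No member was saturated.

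**Figure D1:**
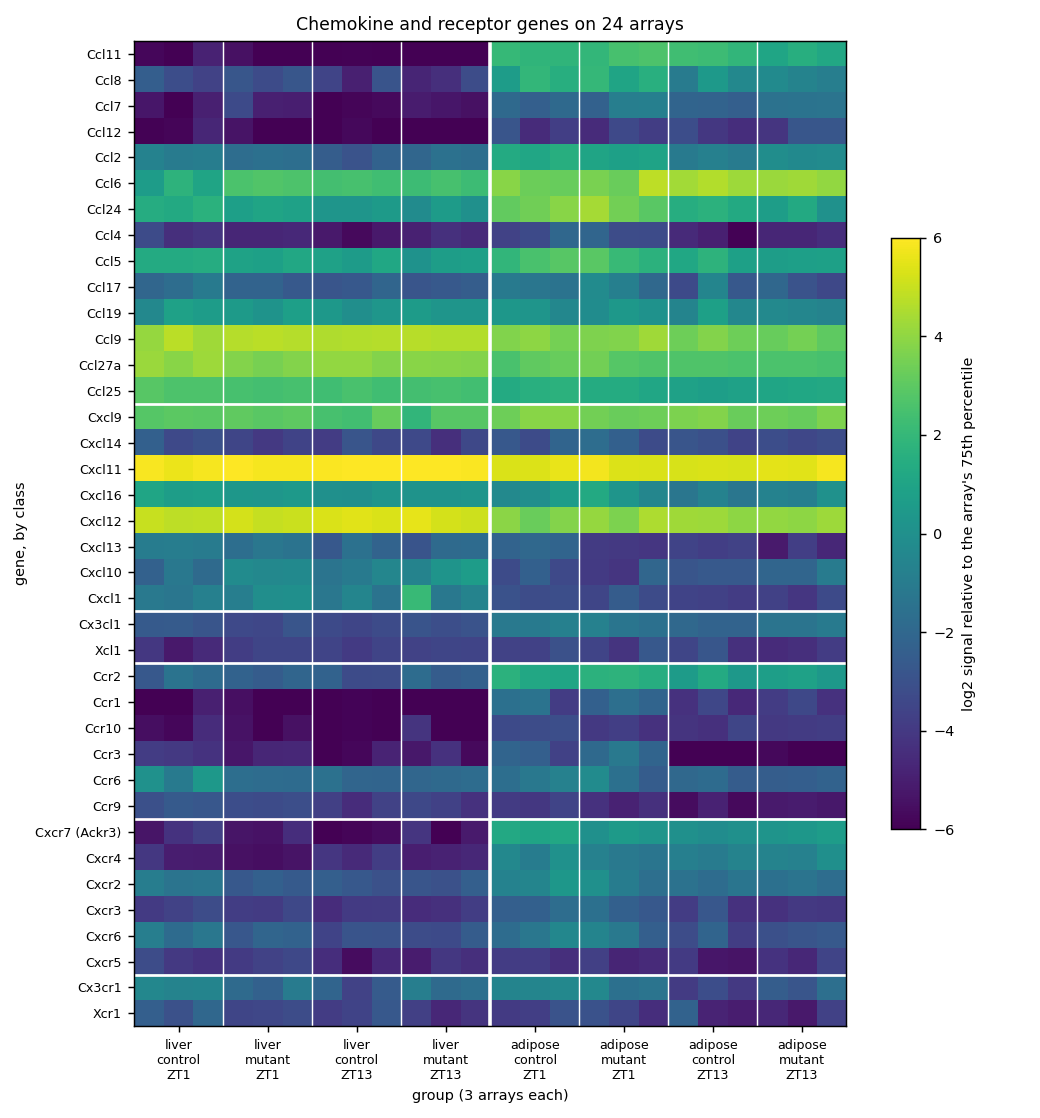
Log2 signal of members in the fit of both tissues (rows, by class and by tissue difference) on each of the 24 arrays (columns, 3 per group); colour is the signal relative to the array's 75th percentile. Ccl11, Cxcr7, Cxcr4, Ccl8 and Ccr2 are brighter on the adipose arrays, and Cxcl1, Cxcl12 and Ccl25 on the liver arrays.

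Labels were checked first. Arntl, a core clock gene that peaks late in the night, was at 0.93 in liver control ZT1 and -2.34 in liver control ZT13 (means, n = 3), and at -1.80 and 1.57 in the mutants. In adipose tissue it was likewise higher at ZT1 in controls and at ZT13 in mutants. The values there were 0.32 and -4.33 in controls and -1.86 and 1.19 in mutants. Since the mutant order was the reverse, Arntl checks the time labels of controls only, and the reason for the reversal was not tested. Control and mutant groups at the same ZT thus differed in the level of this clock gene. All 9 adipocyte markers were higher in adipose tissue and all 12 hepatocyte markers in liver. Adipose arrays nevertheless held hepatocyte signal: the summed linear level of the 12 markers ran from 1.03 (mutant ZT1 replicate 2) to 529 (control ZT1 replicate 2) in adipose tissue, against 1097 to 1848 in liver. Without adipose control ZT1 replicate 2, 30 members still differed between the tissues.

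Most members differed in level between the tissues, as most genes did. Averaged over genotypes and times, 30 of 39 members differed between adipose tissue and liver (limma, adjusted p under 0.05 over all genes tested), 19 higher in adipose tissue and 11 higher in liver. Of all genes tested 75.4% differed, so the members' share was near the background; 33.5% of all genes were higher in adipose tissue and 41.9% in liver. The members' median difference was 0.47 on the log2 scale, adipose minus liver, against -0.14 over all genes. With the percentile taken over probes detected on every array, the median of all genes moved to 0.16, the split of all genes from 8138 higher and 10199 lower to 10448 and 7220, and that of members to 23 and 9; under quantile normalization the splits were 9110 and 8007, and 20 and 11. Among the 27 members that passed the filter in each tissue by itself, 11 were higher in adipose tissue and 10 in liver. By class, among these 27, 5 of 10 CC ligands were higher in adipose tissue and 4 in liver. Of 8 CXC ligands, 2 were higher in adipose tissue and 6 in liver. The shares of all genes under that filter are not given here, so these splits are not read as particular to a class. The liver counts of members and of CXC ligands include Cxcl11, whose probe is not read below as a measurement of that ligand. Of the 10 members that passed the filter in adipose tissue only, 4 are CC ligands, 3 CC receptors and 3 CXC receptors.

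CC ligands, among them monocyte and eosinophil attractants, had the largest ligand differences towards adipose tissue. Ccl11 ran from 1.07 to 2.64 on the 12 adipose arrays (median 1.93) and from -7.32 to -4.86 in liver (median -6.87), where it was not well above background on any array. This bounds the difference at at least 78.4-fold higher in adipose tissue. As in the other bounds, the dimmer tissue is taken at each array's own detection limit or the probe's own signal if higher. Members that passed the test but failed the filter in 1 tissue are given only as such bounds between the tissues. No p-value is given with a bound, since the test used the unbounded signals and the filter was passed through 1 tissue alone. Ccl8 ran from -1.0 to 2.01 in adipose tissue and from -4.97 to -2.41 in liver, a log2 difference of 3.98 ± 0.25 (SE). The ranges of both genes did not overlap between the tissues.

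Ccl7 lay between -2.38 and -0.80 in adipose tissue and was not well above background on any liver array, which makes it at least 5.86-fold higher. Ccl12 had the same pattern closer to the detection limit, above background on 9 of 12 adipose arrays and on none in liver, at least 1.60-fold higher. Ccl2, the main monocyte attractant, was measured on every array, at -1.10 to 1.54 in adipose tissue and -2.92 to -0.70 in liver, and the log2 difference was 1.97 ± 0.09. The ranges of Ccl2 overlapped between the tissues.

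These 5 genes neighbour each other. On build mm9, the array's build, their probes lie on chromosome 11, from Ccl2 at 81850650 through Ccl7 (81860656), Ccl11 (81876072) and Ccl12 (81916764) to Ccl8 (81930108), and all 5 were higher in adipose tissue. Ccl1, next in order at 81990451, did not pass the filter. In a further cluster on the same chromosome, from 83339296 to 83478111, Ccl5 (log2 difference 0.73), Ccl6 (1.85) and Ccl4 were higher in adipose tissue and Ccl9 was higher in liver (-1.01). Neighbours in that cluster thus differed in direction, and Ccl3 did not pass the filter.

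The remaining adipose-high ligands differed by smaller amounts. Ccl6 was above background on all arrays, from 3.19 to 4.80 in adipose tissue and from 0.63 to 2.75 in liver, and the ranges did not overlap. Ccl24, the second eotaxin, differed by 1.61 ± 0.16 and Cx3cl1 by 1.65 ± 0.10, the latter from -2.18 to -0.74 in adipose tissue and from -3.48 to -2.57 in liver. Ccl5, a T cell and monocyte attractant, differed by 0.73 ± 0.15, and Cxcl9 and Cxcl14 were also higher in adipose tissue. Ccl4 was above background on 11 adipose and 3 liver arrays and was at least 1.25-fold higher, and the sign of its difference turned under normexp background correction (-0.013).

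Liver was higher for a set led by Cxcl1, Cxcl10 and Cxcl13. Cxcl1, the neutrophil attractant whose promoter is printed above, ran from -1.45 to 2.10 in liver (median -0.81) and from -4.12 to -2.52 in adipose tissue (median -3.39). The difference was -2.81 ± 0.27 on the log2 scale, 6.99-fold higher in liver (adjusted p = 1.24e-08, limma), with no overlap. Liver mutant ZT13 replicate 1 stood apart at 2.10, against -1.21 and -0.63 in the other arrays of its group, and without it the difference was -2.55. Cxcl10 was 3.86-fold higher in liver, from -2.29 to 0.62 against -4.13 to -1.0 in adipose tissue, with overlapping ranges. Cxcl13, which attracts B cells, was 3.69-fold higher in liver. Cxcl1's neighbours on chromosome 5, Cxcl2 and Cxcl3, were above background on no array.

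Cxcl12, Ccl25 and Ccl27a were detected on every array and higher in liver. Cxcl12, a retention signal for stem cells and lymphocytes, ran from 4.81 to 5.56 in liver and from 3.26 to 4.52 in adipose tissue, a 2.24-fold difference (adjusted p = 4.04e-09, limma). Ccl25, the ligand of Ccr9, ran from 2.30 to 2.90 in liver and from 0.74 to 1.73 in adipose tissue, and Ccl27a from 3.52 to 4.22 and from 2.49 to 3.44. The ranges of these 3 ligands did not overlap between the tissues. Their other probes that passed the filter had the same sign, with -2.01 for the second Cxcl12 probe, -2.47 and -2.77 for Ccl25, and -1.0 and -0.49 for Ccl27a, and a further Ccl25 probe was not tested. Ccl9 at -1.01 ± 0.10, Cxcl16 at -0.67 ± 0.17 and Ccl19 at -0.46 ± 0.17 were also higher in liver. With the percentile over detected probes, Cxcl16 and Ccl19 missed the threshold (adjusted p = 0.0566 and 0.412, limma). The other Ccl19 probes differed by -0.95 and -0.62 and passed under the main setting, and the first of these shares bases with a promoter window of another gene.

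Cxcl11 is not read as a measurement of that ligand. Its brightest probe was higher in liver by 0.56 ± 0.09 on the log2 scale (0.25 higher in adipose tissue under quantile normalization), but the second probe differed by 0.18 in the other direction without passing the test (adjusted p = 0.118, limma). A stretch of 20 bases of the brightest probe, in capitals in the 30 bases printed here because it bears on what the probe binds, occurs in 15 of the 32851 promoter windows of RefSeq.
Cxcl11 probe, bases 15 to 44: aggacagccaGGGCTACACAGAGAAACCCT
Over its whole length this probe shared 20 or more bases with 22 such windows and with probes of 5 other names on the array. Of the other 69 member probes, 66 shared none with a promoter window of another gene.

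Among the 6 CC and CXC receptors that passed the filter in each tissue, 3 were higher in adipose tissue (Ccr2, Cxcr2 and Cxcr3) and none in liver. Of all genes in the fit of both tissues, 33.5% were higher in adipose tissue and 41.9% in liver. The shares among genes that passed in each tissue are not given here, so the count is not read as particular to receptors. The atypical receptor Cxcr7 ran from -0.15 to 1.24 in adipose tissue and from -6.37 to -3.73 in liver. In liver 2 of 12 arrays were above background, and Cxcr7 was at least 26.5-fold higher in adipose tissue. Cxcr4 ran from -1.33 to 0.07 and from -5.57 to -3.82, with 4 of 12 liver arrays above background, at least 11.3-fold higher. Both receptors of Cxcl12 were therefore higher in the tissue in which the Cxcl12 probe was dimmer.

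Ccr2, the receptor of Ccl2, Ccl7 and Ccl12 on monocytes, was above background on all arrays, from 0.41 to 1.78 in adipose tissue and from -3.26 to -1.42 in liver. The groups did not overlap, and the fold was 10.9 (adjusted p = 1.83e-13, limma). Ccr1 was above background on every adipose array and on no liver array, at least 2.46-fold higher. Cxcr2, the receptor of Cxcl1, was 2.37-fold higher in adipose tissue, opposite in direction to its ligand, and Cxcr3 was 1.86-fold higher, though by 0.19 on the log2 scale (adjusted p = 0.2, limma) under normexp. Ccr10, with 1 of 12 liver arrays above background, was at least 1.44-fold higher, and Ccr9, with 5 of 12 adipose arrays above background, was at least 2.28-fold higher in liver. Among the members that missed the threshold were Ccl17, Ccr3, Ccr6, Cx3cr1, Cxcr5, Cxcr6, Xcl1 and Xcr1, with differences between -0.58 (Xcr1) and 0.47 (Ccl17). The second Cx3cr1 probe did pass, higher in liver, but it met the filter in liver alone and its size is not given.

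Tissue contrasts could be repeated within a slide. Among the control ZT1 arrays of slide 1, 24 members differed (18 higher and 6 lower in adipose tissue), and 8664 genes in all passed. Among the mutant ZT13 arrays of slide 3, 29 members differed (14 and 15), and 17908 genes in all passed. The fit of all arrays tested 39 members and 24313 genes. With slide as a term in that fit 30 members differed, and the count of all genes is not given here. The difference of Ccl24 was 2.02 within slide 1 and 0.55 within slide 3, and that of Cxcr3 1.48 and 0.093, which compares control ZT1 with mutant ZT13 as well as the slides.

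**Figure D2:**
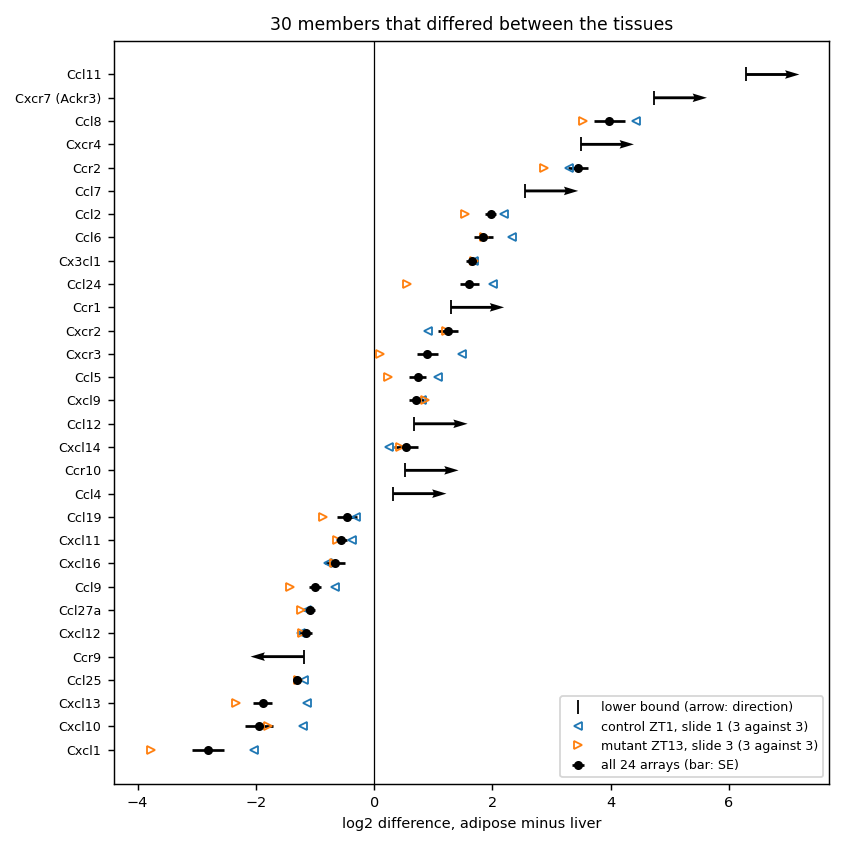
Log2 difference, adipose minus liver, of the 30 members that passed the test over 24 arrays (black points, bars are SE), with the values within slide 1 (blue) and within slide 3 (orange); for members that failed the filter in 1 tissue, a tick with an arrow marks the lower bound of the difference. Cxcl1 lies farthest left at -2.81, and the bound of Ccl11 lies at 6.29.

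Markers of several cell types also differed. All 9 endothelial markers were higher in adipose tissue, with a median log2 difference of 2.22, as were 5 of 6 dendritic cell markers (median 1.11) and 8 of 9 of fibroblasts and stellate cells (median 1.82). Of 13 macrophage markers, 6 were higher in adipose tissue and 2 in liver (median 0.19), and 5 of 6 Kupffer cell markers were higher in liver. The part of these cells in the chemokine differences was not tested. Of 8 atypical receptors and other chemoattractant genes outside the pattern, 7 were higher in adipose tissue, led by the chemerin receptor Cmklr1 (log2 difference 4.61 ± 0.18) and platelet factor Pf4 (3.41 ± 0.13), and Rarres2, which encodes chemerin, was higher in liver. Of 19 signalling genes tested, 15 were higher in adipose tissue and 3 in liver; among the latter was Dpp4, a protease that trims chemokines (-2.02 ± 0.16).

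Time of day was compared within each tissue and genotype. Slide 1 held every control ZT1 array, and no slide held both times of a genotype. The authors' deposited log2 values have nearly the same 75th percentile on every array. Their array medians were -3.39 to -3.03 on slide 1 and -3.92 to -3.50 on slides 2 and 3. The median probe thus read higher on slide 1, and the part of this in the differences below was not tested. In adipose tissue of controls 14 of 37 members tested differed between ZT13 and ZT1, all 14 lower at ZT13, against 8.90% of all genes lower, 6.22% higher and 15.1% in either direction. In mutants 6 of 37 differed, all 6 lower at ZT13, against 1.57% of all genes lower, 0.411% higher and 1.98% in either direction. Under quantile normalization the members called numbered 12 and 6, all lower, while all genes split into 1864 higher and 1132 lower in controls (1452 and 2080 as reported) and 141 and 261 in mutants (96 and 366). The members' median difference was -0.80 in controls and -0.70 in mutants, and that of all genes was -0.26 and -0.14. Among members above background on all 6 arrays compared, 11 of 31 were lower in controls and 5 of 32 in mutants. The share of all genes under that condition is not given here. Ccl2, Ccl24, Ccl8, Ccr3 and Cxcr3 were lower in both genotypes. Ccr3 is counted in both although it passed the filter at ZT1 alone.

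The eotaxin receptor and an eotaxin had large differences. Ccr3, whose promoter is printed above, was at -2.15, -2.36 and -3.66 in control ZT1 and at -1.90, -1.13 and -2.12 in mutant ZT1 (5 of 6 arrays above background). At ZT13 it was at -7.14, -6.91 and -7.17 in controls and -5.73, -6.59 and -6.98 in mutants, above background on no array. ZT13 was thus at least 6.60-fold lower in controls and at least 16.1-fold lower in mutants. Ccr3 passed the filter at ZT1 alone, which favours this direction. Its place among the members lower at ZT13 is therefore no separate support, and no p-value is given with these bounds. No ZT13 array reached any ZT1 array. Ccr3 in liver was above background on 1 of 12 arrays and was not tested there.

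Ccl24, a ligand of Ccr3, was at 3.14, 3.40 and 3.89 in control ZT1 and at 1.49, 1.71 and 1.30 in control ZT13, a log2 difference of -1.98 ± 0.39 (adjusted p = 0.0186, limma). In mutants it was at 4.39, 3.44 and 2.94, then 0.69, 1.28 and 0.07, a difference of -2.91 ± 0.39. The groups did not overlap in either genotype. Ccl11, the other eotaxin, passed in mutants, lower at ZT13 by a log2 difference of -1.10 ± 0.24 (adjusted p = 0.042, limma), with 0.26 ± 0.24 in controls. It passed in only 6 of 16 alternatives. Adjusted p was 0.0525 to 0.055 with no filter on dim probes, the percentile over detected probes or the fit over 24 arrays. Without single arrays it ran from 0.0106 to 0.187, and the highest of all alternatives was 0.932 (all limma). The difference between the changes in the 2 genotypes did not pass the test (adjusted p = 0.309, limma).

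Ccl2 was at 1.34, 1.08 and 1.54 in control ZT1 and at -1.10, -0.75 and -1.02 in control ZT13, 4.85-fold lower (adjusted p = 0.000423, limma). Mutant values were 1.01, 0.80 and 0.96, then -0.10, -0.30 and -0.19, 2.18-fold lower. The 4 groups of Ccl2 were tight, and no ZT13 value reached a ZT1 value. Ccl8 was lower at ZT13 by 1.68 ± 0.43 in controls and by 2.11 ± 0.43 in mutants on the log2 scale. Cxcr3, carried by activated T cells, differed by -1.50 ± 0.40 and -1.93 ± 0.40.

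Other members passed in controls and not in mutants. Cx3cr1 was at -0.60, -0.53 and -0.40 in control ZT1 and at -3.92, -3.16 and -4.03 in control ZT13, 9.17-fold lower (adjusted p = 0.00252, limma), and its mutant difference was -1.18 ± 0.38 (adjusted p = 0.106). Cxcr7 differed by -1.20 ± 0.20 in controls and 0.12 ± 0.20 in mutants, and Cxcl13 by -1.57 ± 0.29 and -0.51 ± 0.29. Ccl4 (-2.18 ± 0.47), Cxcr6 (-1.91 ± 0.52) and Ccl5 (-1.21 ± 0.36) were also lower in controls, and Ccl5 missed the threshold under normexp (adjusted p = 0.0697, limma). Of 16 alternatives in controls, Cx3cr1 and Cxcr7 passed in 14 each, Cxcl13 in 12, Ccl4 in 11, Cxcr6 in 9 and Ccl5 in 6. No member passed the test of the genotype by time interaction in adipose tissue, where 0.124% of all genes did. There 8 of 37 members had an unadjusted p under 0.05, as did 1632 of all 23362 genes. The lowest among members were Cxcr7 (1.32 ± 0.29, adjusted p = 0.207), Ccl2 (1.16 ± 0.28, adjusted p = 0.281) and Ccl11 (-1.36 ± 0.33, adjusted p = 0.309, all limma).

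**Figure D3:**
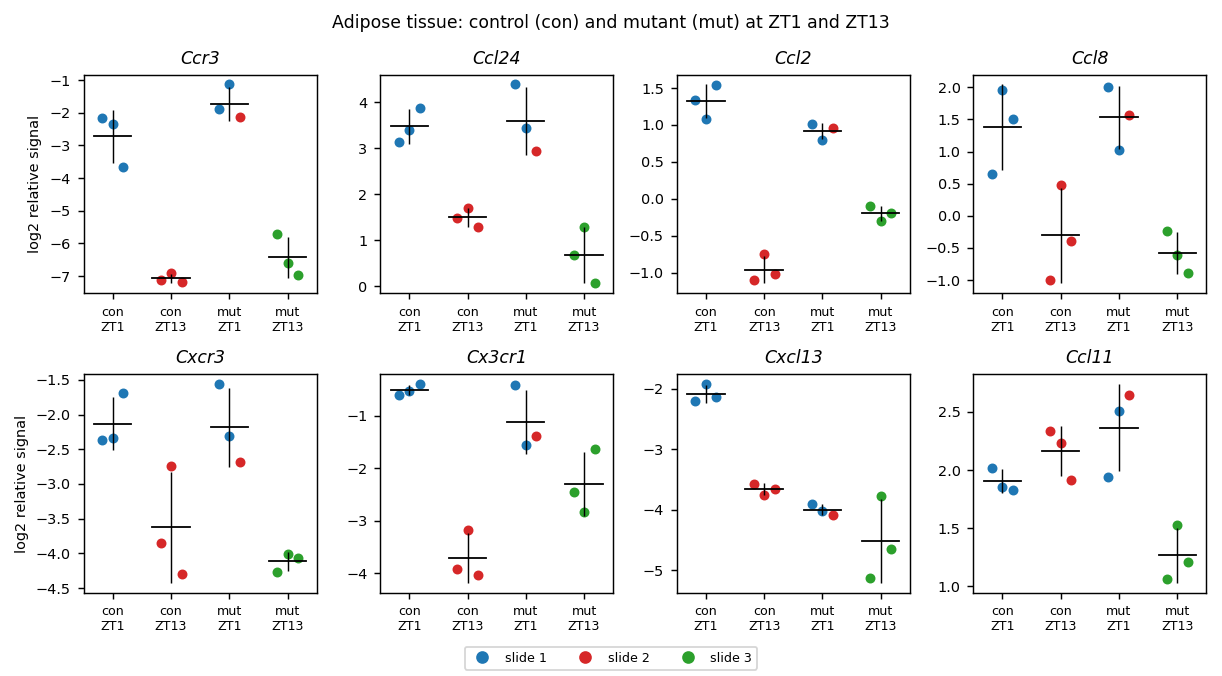
Log2 relative signal of 8 members on each adipose array, by genotype and time; colour is the slide, lines are group means and bars are SD (n = 3). The ZT13 arrays of Ccr3, Ccl24, Ccl2, Ccl8 and Cxcr3 lie below the ZT1 arrays of their genotype, and no slide holds both times of a genotype.

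No slide held both times of a genotype, so slide and time cannot be told apart directly. With slide as a term in a fit of all 24 arrays, 2 members remained past the threshold in controls, Ccl2 (-2.33) and Ccr3, and 1 in mutants, Ccr3. The size of the Ccr3 difference in this fit is not given, since no ZT13 array was above background and the filter was passed at ZT1 alone. Its calls here have the same limit as above. Leave-one-out counts ran from 4 (without control ZT13 replicate 1 or 3) to 13 in controls, with 6 without control ZT1 replicate 3 and 8 without control ZT1 replicate 2. In mutants, 19 members differed without mutant ZT1 replicate 3, the one array of its group on another slide, and 2 or 3 without any other array of the 2 mutant groups. The counts of all genes in these refits are not given here, so the changes are not read as particular to the members.

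Some markers of other cells were lower at ZT13 too. Of 13 macrophage markers 5 were lower in controls (median -0.82) and 9 in mutants (median -1.50), led by the complement genes C1qb (-1.79 and -2.82) and C1qa (-1.54 and -2.35). The summed linear level of the macrophage list was 266 to 365 in control ZT1, 175 to 234 in control ZT13, 293 to 381 in mutant ZT1 and 164 to 208 in mutant ZT13. Of 8 T cell markers tested, 3 were lower in controls and 1 in mutants (medians -1.21 and -1.16), of 6 NK cell markers, 3 and none (medians -1.60 and -1.28), and of 8 B cell markers, 2 and none (medians -1.33 and -0.42). The summed B cell level was not lower at ZT13, with 9.80 to 17.5 in control ZT1 and 16.9 to 21.5 in control ZT13. Of 5 neutrophil and 6 dendritic cell markers, 1 each was lower in each genotype. None of the 8 fibroblast and stellate cell markers tested passed, but their summed level separated the times, with 311 to 338 in control ZT1, 219 to 255 in control ZT13, 281 to 396 in mutant ZT1 and 212 to 260 in mutant ZT13. The endothelial sum did so in controls, at 61.7 to 68.5 and 40.5 to 56.2, and not in mutants. Adipocyte markers had medians of -0.11 and 0.06, and their summed level did not separate the times. The part of these cells in the chemokine differences was not tested. Among 17 inducers tested, such as cytokines and NF-kappaB genes, 4 were higher and 4 lower at ZT13 in controls; Il1b, an inflammatory cytokine, was lower by 3.40 ± 0.51 (adjusted p = 0.00668, limma).

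In liver of controls, 16 of 29 members differed between ZT13 and ZT1, 13 lower and 3 higher, against 51.1% of all genes (30% lower and 21.2% higher). With the percentile over detected probes, all genes split into 8658 lower and 3540 higher (6537 and 4616 as reported) and members into 16 and 2. In liver of mutants none did, against 1.98% of all genes. There 5 members had an unadjusted p under 0.05, as did 3093 of all 21822 genes. The 3 members of lowest p in mutants were Ccl24 (-0.74 ± 0.20, adjusted p = 0.0967), Xcr1 (-0.82 ± 0.34) and Ccr9 (-0.62 ± 0.26), none of which passed. The members' share in controls was near that of all genes. Cx3cr1 was at -0.44, -0.63 and -0.60 in control ZT1 and -2.11, -3.62 and -2.54 in control ZT13, 4.60-fold lower (adjusted p = 0.00113, limma). Ccl2 was 3.18-fold lower, Cxcr6, a receptor of resident T and NKT cells, 3.54-fold, the lymphocyte receptor Ccr6 3.28-fold and Cxcr2 2.83-fold. Ccl24 (2.15-fold), Ccr9 (2.20-fold), Cxcl13 (2.25-fold), Ccr2 (1.91-fold) and Xcr1, the receptor of Xcl1 on dendritic cells (1.90-fold), were also lower. Ccl6 was 2.44-fold higher at ZT13 and Cxcl12 1.40-fold higher. Xcl1, a lymphocyte chemokine above background on 2 arrays at ZT13 and none at ZT1, was at least 1.03-fold higher. In this comparison 4 of 5 neutrophil, 3 of 7 T cell, 3 of 6 B cell and 2 of 5 NK cell markers were lower and none higher. Of 13 macrophage markers 5 were lower and 1 higher, and of 6 dendritic cell markers 2 were lower and 3 higher. The part of these cells was not tested.

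Mutant liver at ZT1 was compared with control liver at ZT1. Of 29 members, 14 differed, 3 higher and 11 lower in mutants, against 45.3% of all genes in either direction (17.7% higher and 27.5% lower). The members' share was near the background. Ccl6 was at 2.60, 2.75 and 2.66 in mutants and at 0.63, 1.74 and 1.0 in controls, 2.92-fold higher (adjusted p = 0.000606, limma). Cxcl10 was 2.76-fold higher, at -0.19, -0.42 and -0.31 against -2.29, -1.18 and -1.84. Ccr6 was 2.89-fold lower, at -1.66, -1.75 and -1.82 against 0.08, -1.12 and 0.41, and Cxcr2 2.51-fold lower, Cx3cr1 2.23-fold, Cxcr6 2.08-fold, Xcr1 1.87-fold, Ccl2 1.71-fold, the T cell attractant Ccl17 1.64-fold, Ccl24 1.51-fold, Cx3cl1 1.44-fold and Cxcl16 1.37-fold lower. Ccl27a also passed, and Xcl1, above background on 2 mutant and no control arrays, was at least 1.10-fold higher in mutants. The T cell markers Cd3e (-1.17 ± 0.21), Lck (-1.10 ± 0.22) and Cd2 (-0.91 ± 0.26) were lower as well, 3 of 7 tested, and the summed T cell level was 2.60 to 2.99 in mutants and 3.91 to 4.43 in controls. Other lists held calls as well: 3 of 6 B cell, 2 of 5 neutrophil and 5 of 12 hepatocyte markers were lower, 4 of 6 of sinusoidal endothelium were higher, and of 13 macrophage markers 3 were higher and 1 lower. The part of these cells was not tested.

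All control ZT1 liver arrays lay on slide 1 and all mutant ZT1 liver arrays on slide 2. Control ZT1 also held the weakest liver arrays by 75th percentile signal, at 406, 731 and 582 units. With slide as a term, none of the 29 members passed in this comparison and none in the time comparison of control liver, and 9 of the 14 changed sign. Without single arrays the genotype count was 6 (without mutant replicate 1), 7 (without control replicate 1 or mutant replicate 2) and 9 (without control replicate 3). The counts of all genes in these refits are not given here. Slide cannot be told apart from genotype here.

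At ZT13 in liver, 2 control and 3 mutant arrays shared slide 3. None of 29 members passed, against 3.02% of all genes. Unadjusted p was under 0.05 for 4 members and for 3250 of all 21822 genes. Ccl2 was nearest, at -2.02, -1.53 and -1.65 in mutants and -2.45, -2.92 and -2.25 in controls, a log2 difference of 0.81 ± 0.20 (adjusted p = 0.0505, limma). The groups did not overlap, the difference within slide 3 was 0.85 (adjusted p = 0.126), and in 5 of the alternatives, among them slide as a term (adjusted p = 0.0389), Ccl2 passed. Cx3cr1 was higher by 1.31 ± 0.40 (adjusted p = 0.119) and Cxcl10 by 1.04 ± 0.35 (adjusted p = 0.159). The inducers Irf1 and Il1b were higher in mutants, Il1b by 0.96 ± 0.23 (adjusted p = 0.046, limma).

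Genotype by time was tested as an interaction in liver, that is, the mutant minus control difference at ZT13 minus that at ZT1. Of 29 members, 6 passed, against 31.1% of all genes (18.3% with a positive and 12.9% with a negative interaction). By sign the members split into 5 positive and 1 negative, and into 4 and 2 under quantile normalization; all genes split into 3983 and 2812, and with the percentile over detected probes into 5382 and 2265. Cx3cr1 had an interaction of 2.47 ± 0.57, with differences of -1.16 at ZT1 and 1.31 at ZT13. Its second probe did not pass, with an interaction of 1.44 ± 0.60 (adjusted p = 0.0884), -0.27 at ZT1 (adjusted p = 0.623) and -0.83 for time in controls (adjusted p = 0.121, all limma). Ccl2 had an interaction of 1.58 ± 0.28, with -0.77 and 0.81. Ccr6 (1.55 ± 0.46), Cxcr2 (1.27 ± 0.31) and Cx3cl1 (0.90 ± 0.25) had the same sign and Ccl6 the opposite one (-1.64 ± 0.33). Ccl2 and Cx3cr1 had their highest level in control ZT1 and their lowest in control ZT13, with both mutant groups between. With slide as a term none of the 6 passed.

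**Figure D4:**
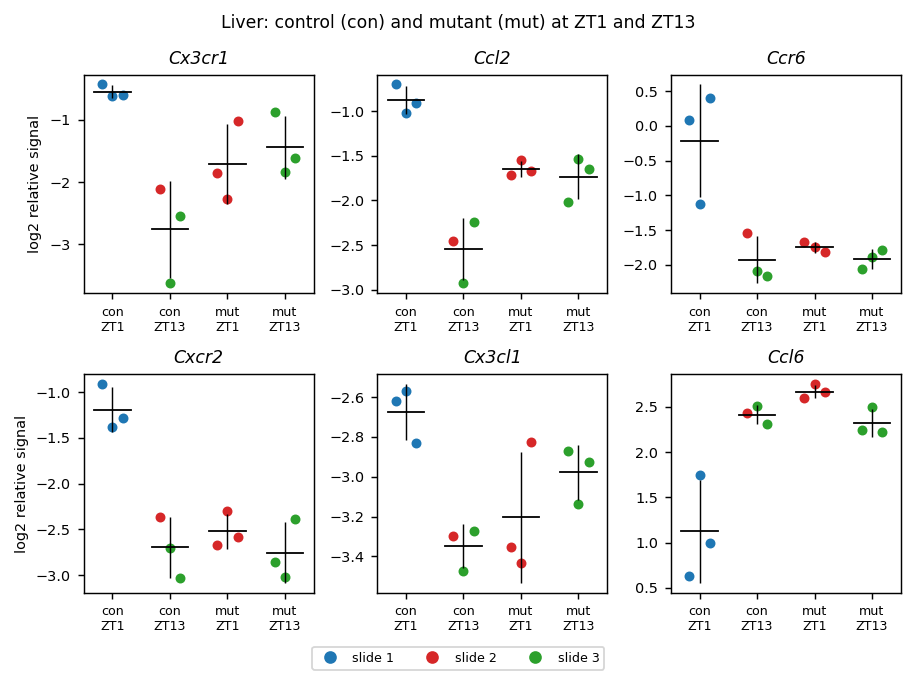
Log2 relative signal of the 6 members that passed the liver interaction test, on each liver array; colour is the slide, lines are group means and bars are SD (n = 3). In Ccr6, Cxcr2 and Ccl6 the control ZT1 arrays, all of slide 1, stand apart from the other groups.

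In adipose tissue no member differed between genotypes at either time, of 37 tested, and 0% of all genes passed at ZT1 and 0.0428% at ZT13 (limma). At ZT1, 5 members had an unadjusted p under 0.05, as did 1836 of all 23362 genes. Cxcl13 was at -3.90, -4.02 and -4.08 in mutants and at -2.20, -1.93 and -2.14 in controls, a log2 difference of -1.91 ± 0.29 (adjusted p = 0.0849), and the groups did not overlap. The difference was -1.87 among the 5 arrays of slide 1, and Cxcl13 passed in the fits over 24 arrays without slide (adjusted p = 0.0115) and with it (adjusted p = 0.023), against 0.0549 to 0.335 without single arrays. Hepatocyte markers had a median difference of -3.77 in this comparison, with none passing; their sum was highest, at 529, in control replicate 2, where Cxcl13 was at -1.93, and about equal in the other 2 controls (median of the group 108), against 87.8, 1.03 and 50.7 in mutants, in the order of the Cxcl13 values above. The part of these cells in the Cxcl13 values was not tested. Cxcr7 (-0.87 ± 0.20, adjusted p = 0.332) and Ccr10 (-0.81 ± 0.25, adjusted p = 0.527) were next and did not pass.

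At ZT13 in adipose tissue 6 members had an unadjusted p under 0.05, as did 1123 of all 23362 genes. Ccl2 was higher in mutants by 0.76 ± 0.20 (adjusted p = 0.412), Ccl11 lower by 0.90 ± 0.24 (adjusted p = 0.441) and Cx3cr1 higher by 1.41 ± 0.38 (adjusted p = 0.45, all limma), and none of the 3 passed. Ccl2 at ZT13 thus differed by 0.81 in liver and 0.76 in adipose tissue, and the difference between these values was -0.046 ± 0.26. None of 39 members passed the test of a tissue difference in the genotype effect at ZT1 or ZT13, against 1.41% and 0.214% of all genes. Unadjusted p was under 0.05 for 6 and 1 members, and for 5741 and 1566 of all 24313 genes.

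**Figure D5:**
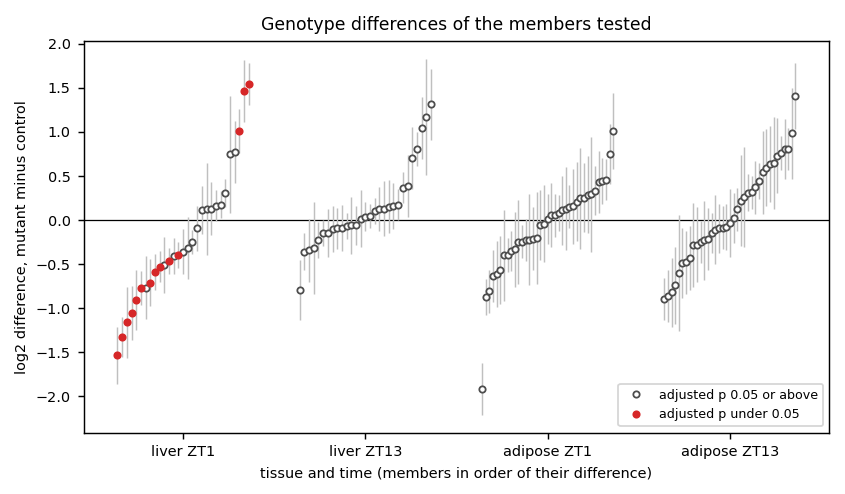
Log2 difference, mutant minus control, of every member tested in each tissue and time (29 in liver, 37 in adipose tissue), in order of the difference, with SE bars; red marks an adjusted p under 0.05. The 14 red points are all in liver at ZT1, and the lowest open point is Cxcl13 in adipose tissue at ZT1.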

How the data were processed

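Per the file headers, Agilent Feature Extraction 10.7.3.1 gave each spot's intensity; the processed signal is that intensity after the scanner software's background subtraction. The authors' deposited table of log2 values, which equals log2 of that signal minus a constant per array (column medians -3.92 to -3.03), was an alternative. Its 75th percentile lay between 0.0030 and 0.010 on each array, so it nearly repeats the main scaling and is no separate support. Members and lists were chosen with earlier results of these data known.

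Control and outlier spots (0.238% to 0.685%) were left out, spots of a probe averaged, and log2 signals set relative to each array's 75th percentile. limma 3.58.1 in R 4.3.3 (two-sided) was fitted per tissue, or over 24 arrays for tissue contrasts, with Benjamini-Hochberg adjustment over 21822 (liver), 23362 (adipose) or 24313 genes (both), at 0.05. Tested on simulated data, it recovered 90.0% (liver ZT13, 21822 genes) and 73.5% (adipose ZT13, 23362 genes) of 200 genes changed by 2 on the log2 scale. P-values measure the spread between arrays.

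Values are given for up to 10 passing members each way, by size of difference (12 for tissue), or the 3 of lowest p where none passed; Rarres2, Dpp4 and the Cxcl11 repeat were picked after their values were seen. Alternatives covered background, normalization, filters, probes, slide, animal and leave-one-out. Probe positions are on mm9, and no annotation of exons on that build was used here. Values of 1 member are not reported here.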

Additional observations from a re-analysis of the deposited data

Results flagged for a closer look

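In liver the genotype difference of 6 members depended on time by the test of the interaction itself (limma, adjusted p under 0.05), of 29 tested, where 31.1% of all genes did so: Cx3cr1 (2.47), Ccl2 (1.58), Ccr6 (1.55), Cxcr2 (1.27) and Cx3cl1 (0.90) had a difference, mutant minus control, that was more positive at ZT13 than at ZT1, and Ccl6 (-1.64) one that was more negative. The second Cx3cr1 probe did not pass (1.44, adjusted p = 0.0884). None of the 6 passed with slide as a term, and the control ZT1 arrays lay on a slide of their own. No outlying array was looked for by a rule, since each group holds 3 arrays.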

How the results depend on the processing

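The tissue count of 30 members held between 24 and 37 under every alternative run, within 1.5 times, and between 30 and 33 without single arrays. Liver ZT1 mutant against control (14 members) fell to 0 with slide as a fixed block, 7 when all 24 arrays were fitted and 8 with no filter on dim probes, with 6 to 13 without single arrays. Control liver ZT13 against ZT1 (16) fell to 0 with slide as a fixed block, as did the liver interaction (6); without single arrays they ran from 13 to 19 and from 4 to 10 (10 without control ZT1 replicate 2). Mutant liver ZT13 against ZT1 (0) gave 1 with slide as a random block, and 0 to 1 without single arrays (1 without mutant ZT13 replicate 2). Adipose ZT13 against ZT1 in controls (14) gave 9 with the replicate block, 2 with slide as a fixed block and 1 with it as a random block, and 4 to 13 without single arrays. In mutants (6) the counts were 2, 1 and 0 under those settings, 13 in the fit over 24 arrays, and 2 to 19 without single arrays. Liver ZT13 mutant against control (0) gave 1 under the mean of all probes of a gene, the percentile over probes detected on all arrays, slide as a fixed or random block and the fit over 24 arrays. Adipose ZT1 (0) gave 1 in that fit and in the one with a fixed slide block; without single arrays both stayed at 0. The adipose ZT13 comparison and the adipose interaction stayed at 0 throughout. Counts of all genes under most of these settings are not given here, so no change of a count is read as particular to the members. Equal replicate numbers were not taken to pair arrays, since deviations of same-numbered arrays correlated at -0.51 to 0.35 within a tissue, and the replicate block changed no other count by over 1.5 times. The labels do not say whether liver and adipose arrays of the same group and number came from 1 mouse; their deviations correlated at -0.26 to 0.14, and with the animal as a random block the tissue count was 30. Signs turned for Cxcl11 between tissues under quantile normalization (0.25) and for Ccl4 under normexp (-0.013) and within slide 3 (-0.021). With normexp Xcl1 in liver was -0.036 for genotype at ZT1 and -0.075 for time. With slide as a fixed block, signs turned at liver ZT1 for Ccr6 (0.089), Cxcl10 (-0.53), Xcl1 (-0.14), Cxcr6 (0.46), Cxcl16 (0.81), Ccl24 (0.38), Ccl17 (0.71), Ccl27a (0.042) and Xcr1 (0.26), and in control liver over time for Ccl6 (-0.062), Ccr6 (0.29), Cxcl16 (0.43), Xcl1 (-0.093), Ccl17 (0.22), Cxcl12 (-0.21) and Ccr2 (0.017). The cause of these changes was not tested. Members near the detection limit have compressed or bounded differences.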
